A study of Mus musculus with 28 samples.

Results

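Genes of the cilium and flagellum were followed through H3K27ac peaks of mouse male germ cells. They were chosen by symbol: any peak whose gene field held, alone or in a list, a symbol starting with Dnah, Dnaic, Dnali, Dnaaf, Cfap, Rsph, Drc or Ift and then a digit. This gave 37 genes of the 19162 listed in the H3K27ac tables, and 1215 of the 471458 peaks of the 12 libraries. They comprised 14 axonemal dynein chains, 3 dynein assembly factors, 6 radial spoke genes, 13 genes of intraflagellar transport and Drc1. No symbol starting with Cfap stood in the tables, which used an older gene annotation.

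Motile cilia and the sperm tail share a core, the axoneme, in which dynein motors slide microtubule doublets against each other. Assembly factors build the dynein arms in the cytoplasm, radial spokes and the nexin-dynein regulatory complex coordinate the sliding, and intraflagellar transport carries cargo along most growing cilia, including the immotile primary cilia of many cell types. In the testis the axoneme of the tail is laid down in spermatids, and many of its genes are first transcribed during meiosis.

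The mark measured, H3K27ac, is an acetyl group on a histone tail that accompanies active promoters and enhancers. It had been profiled by ChIPmentation, in which a transposase adds the sequencing adapters to immunoprecipitated chromatin. All mice were C57BL/6, and chromatin of formaldehyde-fixed testis germ cells was sonicated. Thy1+ spermatogonia, which include undifferentiated cells, and c-Kit+ spermatogonia, which are differentiating, came from mice at postnatal day 7, either wild type (WT) or with a knockout of Scml2 (KO), a germline Polycomb protein. Pachytene spermatocytes (PS, meiotic prophase) and round spermatids (RS, haploid) came from adult KO mice. Each of these 6 groups had 2 libraries, and 16 inputs without immunoprecipitation were read for comparison. Wild-type PS and RS were not analysed here for H3K27ac, so every statement on PS and RS concerns the knockout. Cells had been isolated by sedimentation (STA-PUT) or magnetic sorting (MACS), and the labels do not say which for each group or whether the 2 libraries of a group came from separate animals. Every p-value therefore measures only the spread between these libraries, which may be technical.

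Libraries differed in scale. Spermatogonial libraries held 17877 to 36362 peaks and adult libraries 63322 to 73316. Stage, age and isolation cannot be told apart between them, nor can fewer acetylated cells and less acetylation per cell. The read depth is unknown, and the background height, 1 value per library, was 0.564 to 1.11 in spermatogonia, 1.62 and 0.876 in PS and 1.56 and 0.849 in RS. Promoters of all 5 pachytene markers examined (Sycp1, Sycp3, Mybl1, Spata22, Pgk2) had peaks in all 4 adult libraries, as did all 6 spermatid markers, including the protamine gene Prm1, already in PS. The pachytene markers were not all confined to adult cells. Mybl1, Sycp1 and Sycp3 also had a promoter peak in 8, 6 and 5 of the 8 spermatogonial libraries, and Spata22 and Pgk2 in 0. Markers of spermatogonia often did not follow the labels either. No library had a promoter peak of Thy1, Gfra1 had one in 1 Thy1+ KO library, and Dmrtb1 in the 4 adult libraries alone. Zbtb16, Id4, Etv5 and Kit had one in all 4 adult libraries and 4, 3, 8 and 6 of the 8 spermatogonial ones. Stra8 had one in 1 spermatogonial and 2 adult libraries, and Sohlh1 in 2 spermatogonial and 3 adult libraries. Promoter peaks of Sertoli cell markers (Sox9, Amh, Wt1, Gata4, Cldn11) were also called, for 1 to 4 of the 5 in spermatogonial libraries, all 5 in PS and 3 in RS, with summed fold enrichments (the height of a peak over the library's background) of 9.59 to 27.4, 45.4 and 59.2, and 16.8 and 13.5. Leydig cell markers had promoter peaks for 0 to 3 of 4 in spermatogonia, 3 in PS and 1 in RS, with none for Cyp17a1 in any library. Macrophage Csf1r (at most 9.00, in RS replicate 1) and the endothelial Pecam1 and Vwf (3.91 to 6.40) were called in adult cells alone. Of the myoid markers, Acta2 was called at 3.99 to 10.1 in 6 spermatogonial libraries and at 4.80 in 1 PS library. Myh11 was called only in replicate 1 of Thy1+ KO (7.59) and replicate 1 of c-Kit+ KO (5.67). No promoter peak of Scml2 was called in the WT libraries and 4 of the 8 KO libraries had one. An H3K27ac peak does not test for the deletion. In the inputs, 9 of 13503 peaks carried a cilium or flagellum symbol, and none of the 9 was a promoter peak.

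The promoters that carry the main contrast are shown first. They were taken from RefSeq promoter windows of GRCm38.p6, which held 31 of the 37 genes (not Dnaaf1, Ift122, Ift80, Ift81, Rsph1 or Rsph4a). Each line runs 5′ to 3′ on the gene's strand, from 120 bases before the transcription start to 30 bases from it on. Capitals mark GTTGCC or its reverse complement, 1 arm of the X-box bound by RFX transcription factors, regulators of ciliary genes. The first set is a part of the 6 members with a promoter peak in all 4 adult libraries and in no spermatogonial library: Dnah10 (chr5:124724965-124725114, + strand), Dnaic2 (chr11:114727299-114727448, + strand), Rsph6a (chr7:19054567-19054716, + strand) and Dnah17 (chr11:118129190-118129339, − strand).
Dnah10: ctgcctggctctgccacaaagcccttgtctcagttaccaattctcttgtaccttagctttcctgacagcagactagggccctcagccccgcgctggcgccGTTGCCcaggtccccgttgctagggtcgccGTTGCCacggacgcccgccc
Dnaic2: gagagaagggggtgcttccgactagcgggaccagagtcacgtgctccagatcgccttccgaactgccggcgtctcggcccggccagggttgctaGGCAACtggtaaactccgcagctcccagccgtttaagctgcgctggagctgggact
Rsph6a: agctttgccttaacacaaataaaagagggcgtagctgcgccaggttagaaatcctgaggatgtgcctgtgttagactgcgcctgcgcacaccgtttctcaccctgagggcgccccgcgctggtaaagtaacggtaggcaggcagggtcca
Dnah17: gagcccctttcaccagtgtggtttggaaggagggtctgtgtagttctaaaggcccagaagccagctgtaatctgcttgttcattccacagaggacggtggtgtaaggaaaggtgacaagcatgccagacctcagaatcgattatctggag

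The second set is a part of the 14 members with a window and a promoter peak in all 12 libraries: Ift172 (chr5:31291085-31291234, − strand), Ift88 (chr14:57423951-57424100, + strand), Ift57 (chr16:49699174-49699323, + strand) and Dnaaf2 (chr12:69198400-69198549, − strand).
Ift172: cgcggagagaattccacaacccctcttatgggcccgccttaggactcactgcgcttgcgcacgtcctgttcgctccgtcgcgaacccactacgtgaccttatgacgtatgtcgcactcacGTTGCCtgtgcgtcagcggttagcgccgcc
Ift88: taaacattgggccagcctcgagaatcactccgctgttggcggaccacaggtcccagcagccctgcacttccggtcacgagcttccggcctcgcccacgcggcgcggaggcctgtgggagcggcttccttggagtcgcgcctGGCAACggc
Ift57: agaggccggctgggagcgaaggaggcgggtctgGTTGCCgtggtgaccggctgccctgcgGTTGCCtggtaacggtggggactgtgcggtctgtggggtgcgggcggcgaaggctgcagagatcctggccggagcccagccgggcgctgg
Dnaaf2: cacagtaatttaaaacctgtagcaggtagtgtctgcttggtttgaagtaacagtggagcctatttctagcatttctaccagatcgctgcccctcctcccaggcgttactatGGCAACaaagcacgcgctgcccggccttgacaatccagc

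The last is the RefSeq start of Drc1 (chr5:30281273-30281422, + strand), which lies apart from the Drc1 start used by the tables and is described with the peaks outside promoters.
Drc1: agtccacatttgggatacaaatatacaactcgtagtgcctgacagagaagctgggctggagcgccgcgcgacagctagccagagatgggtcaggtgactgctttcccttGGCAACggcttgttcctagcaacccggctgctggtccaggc

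The X-box arm stood in 12 of the 31 windows of 300 bases (250 before the start and 50 from it on), against 13.0% of the 13596 listed genes with a window. In 8 of the 12 it began within 30 bases of the start: in Dnaaf2, Dnah10, Dnaic2, Drc1, Ift27, Ift172, Ift88 and Rsph3b. Of all listed genes with a window, 3.45% had it that close. The distance was chosen after the positions were seen. By class, the arm stood in 7 of 14 windows of members called in all 12 libraries, against 12.4% of all genes of that class. For members called in adult cells alone it stood in 2 of 6, against 21.4%. All printed sequences of the second set carry it, so the printed sequences do not give these shares. The complete X-box joins a pair of such arms. In the 1 strict spelling searched, with 2 bases between the arms, no window held it and 0.5% of all listed genes did; other spacings and arms with a changed base were not searched. TAACNG, the core recognised by MYB factors such as the pachytene regulator MYBL1, stood in 15 of 31 windows against 20.1%. The palindromic cyclic AMP response element was found in 2 windows against 2.81%, and the palindromic site of NRF1 in 3 against 8.24%. All motifs were searched on both strands, and a match describes letters and not a bound site.

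The 14 windows of members called in all 12 libraries held a median of 21 CpGs, from 8 in Dnaaf2 and Dnah7b to 35 in Ift140. The 6 windows of members called in adult cells alone held a median of 12.5, from 4 in Dnah17 to 17 in Dnaic2. Over all listed genes the same classes held medians of 24 and 6 CpGs. The ranges of the member sets overlapped, and no test was made.

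Promoter peaks were widespread for the genes in adult cells. In each of the 4 adult libraries 33 of the 37 genes (89.2%) had one, while 71.4% to 75.4% of all listed genes did. In the 8 spermatogonial libraries 19 to 25 of the 37 genes had one (51.4% to 67.6%), beside 55.2% to 67.3% of all genes. Group means over 2 libraries each were 19.5 ± 0.707 (SD) for Thy1+ WT, 22.5 ± 3.54 (SD) for c-Kit+ WT and also for Thy1+ KO, and 23.0 ± 2.83 (SD) for c-Kit+ KO. All 4 adult libraries thus lay above all 8 spermatogonial libraries, and the spermatogonial groups overlapped each other except that both c-Kit+ KO libraries (25 and 21) lay above both Thy1+ WT libraries (20 and 19). With the 17877 strongest peaks of each library the means were 32 in PS and 30.5 in RS against 19.0 to 21.5.

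**Figure D1:**
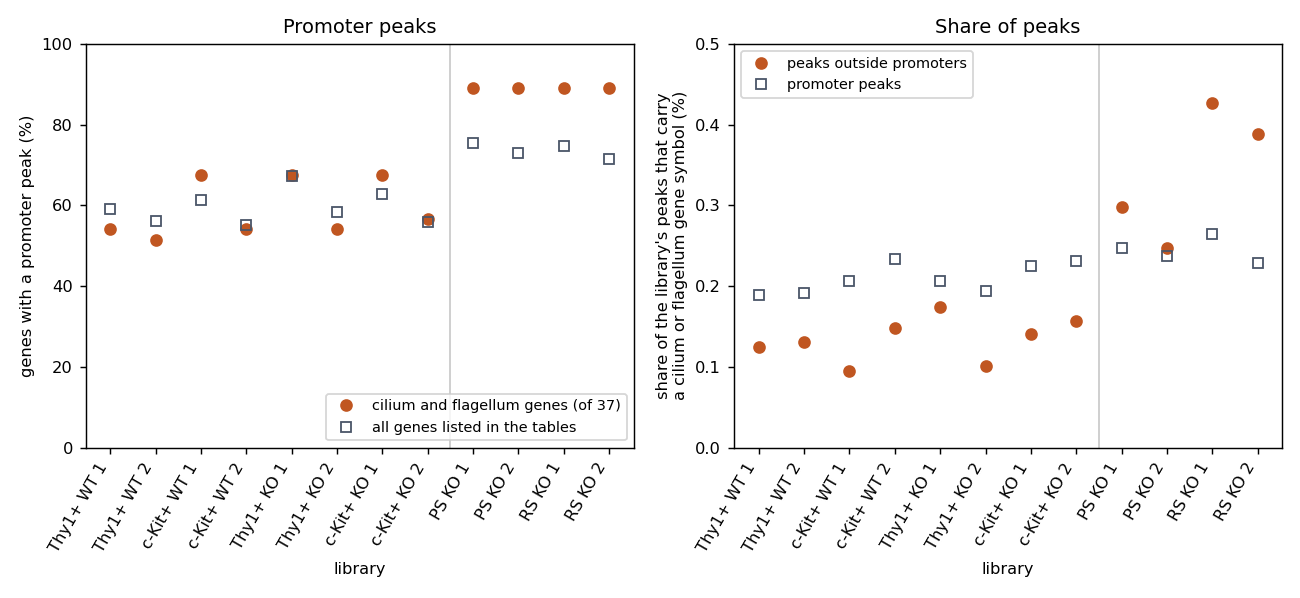
Left, the percentage of genes with a promoter peak in each of the 12 H3K27ac libraries, for the 37 cilium and flagellum genes (filled circles) and all 19162 listed genes (open squares). Right, the percentage of each library's peaks that carry a cilium or flagellum symbol, outside promoters (filled circles) and at promoters (open squares). Each point is 1 library, and the grey line parts spermatogonial from adult libraries. The members overlap all genes in spermatogonia and lie above them in adult cells, at 89.2%, and their share of peaks outside promoters is highest in RS, at 0.427% and 0.389%.

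By library, 18 of the 37 genes (48.6%) had a promoter peak in all 12, close to the 48.8% of all genes. A further 6 (16.2%) had one in all 4 adult libraries and in no spermatogonial library, against 5.68% of all genes. Another 8 (21.6%) had one in all 4 adult and some spermatogonial libraries, against 12.1%. In no library was a promoter peak called for Dnah5, Dnah11 and Drc1 (8.11%, against 17.2%). The remaining 2 were Dnah2 and Rsph4a. The heat map of promoter values shows these classes by gene.

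**Figure D2:**
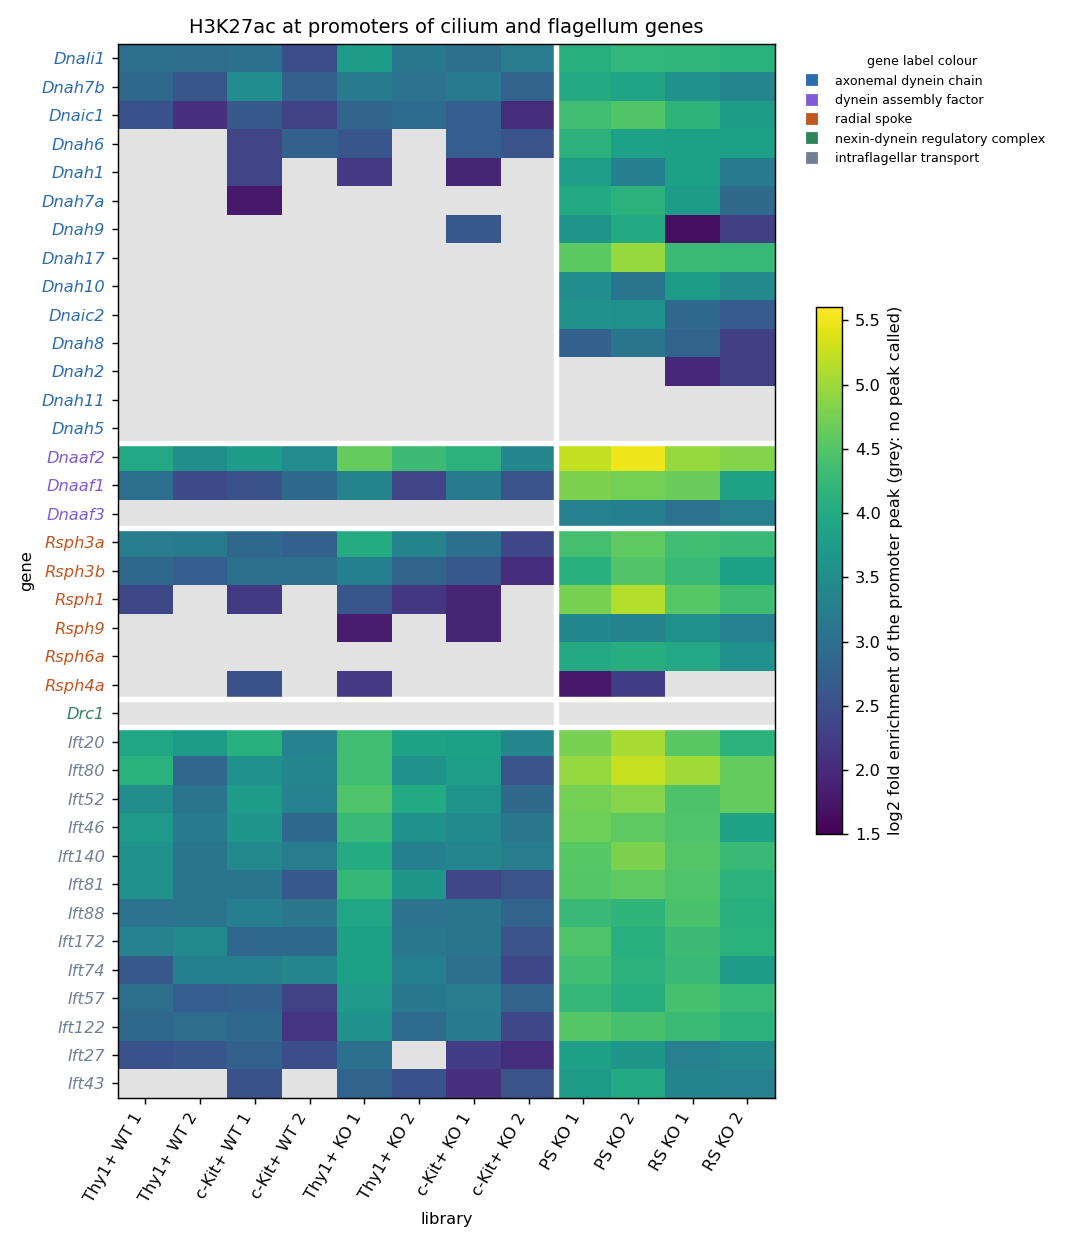
Fold enrichment of the strongest promoter peak on a log2 colour scale for each of the 37 genes (rows, grouped and coloured by role) in each library (columns); grey means that no promoter peak was called. The intraflagellar transport rows are filled nearly throughout, the dynein rows are largely grey in spermatogonia, and 33 rows are filled in each adult library.

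Intraflagellar transport genes were called nearly throughout. Of the 13, 11 had a promoter peak in all 12 libraries, and Ift27 and Ift43 missed it in 1 and 3 libraries. The fold enrichment used here is the authors' own value per peak, the height of the signal over 1 background per library, and was not adjusted to the inputs. The median over the 11 promoters was 7.00 to 16.2 in spermatogonial libraries and 17.9 to 24.0 in adult libraries. Over all 9350 genes called in all 12 libraries it was 8.68 to 18.7 and 15.7 to 22.4, so adult medians mostly ran higher for all genes too. The exception was Thy1+ KO replicate 1, at 18.7, above RS at 18.4 and 15.7.

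Ift80 (transcribed from chr3:68892499-69004570, − strand), a subunit of the IFT-B train that moves cargo toward the tip, had the highest promoter mean of the group. Its fold enrichment was 17.3 and 7.24 in Thy1+ WT, 12 and 10.5 in c-Kit+ WT, 20.3 and 12.2 in Thy1+ KO, 13.7 and 5.83 in c-Kit+ KO, 30.9 and 37.9 in PS and 32.9 and 24.9 in RS. All adult values lay above all spermatogonial values. The tables list this peak for Ift80 and Smc4, so it cannot be given to either gene alone. Ift20 (chr11:78536436-78541473, + strand), which works at the Golgi as well as in the cilium, was high from the start, with 9.92 to 20.3 (median 14.4) in spermatogonia and 27.1, 33.6, 23.5 and 17.9 in PS and RS. Those ranges overlapped, and the peak is shared with Tnfaip1. Ift52 (chr2:163017472-163046135, + strand), a core IFT-B subunit with a promoter of its own, had 7.58 to 22.3 (median 11.9) in spermatogonia, 26.7 and 28.8 in PS and 21.9 and 24.9 in RS. Only Thy1+ KO replicate 1 reached the lowest adult value. Ift46, also IFT-B, had 7.44 to 19.2 and then 25.9, 24.0, 22.3 and 14.6, and Ift57, the lowest of the transport promoters called throughout, 4.96 to 13.2 and then 18.7, 16.5, 21.1 and 18.9.

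Ift88 (chr14:57424071-57517936, + strand), the IFT-B subunit whose partial loss in the mouse is a model of polycystic kidney disease, ranged from 7.00 to 15.2 (median 8.48) in spermatogonia. It stood at 19.4 and 18.1 in PS and 21.5 and 16.8 in RS, with no overlap. Ift172 (chr5:31253279-31291114, − strand), another IFT-B subunit, was similar, at 5.83 to 14.2 (median 8.73) and then 22.1, 17.1, 19.9 and 17.3. Of the IFT-A subunits, which serve the return journey, Ift140 (chr17:25016086-25099497, + strand) had 8.45 to 16.2 in spermatogonia and 19.5 to 27.7 in adult cells. The Ift140 peak is shared with Cramp1l. Ift43, also IFT-A, was the least constant: no promoter peak was called in Thy1+ WT or in c-Kit+ WT replicate 2, and adult values were 13.3, 16, 10.2 and 9.74. Ift27 (chr15:78159463-78174108, − strand), a small GTPase of IFT-B needed for sperm tails, had 4.08 to 8.10 where called in spermatogonia and 14.1, 12.8, 9.78 and 10.8 in PS and RS.

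Dynein assembly factors split. Dnaaf2 (chr12:69189838-69198429, − strand), a cytoplasmic co-chaperone for dynein heavy chains, had the highest promoter mean of all members called in all 12 libraries. Its values were 15.7 and 11.5 in Thy1+ WT, 13.7 and 11.2 in c-Kit+ WT, 24.8 and 19.8 in Thy1+ KO, 17.5 and 10.5 in c-Kit+ KO, 37.4 and 45.3 in PS and 31.3 and 28.7 in RS. The adult values did not overlap the others, and the peak is shared with the transcript 9330151L19Rik. Dnaaf1 (chr8:119575235-119598454, + strand), shared with Hsdl1, had 5.12 to 10.1 in spermatogonia and 27.8, 26.7, 25.4 and 14.6 in adult cells. Dnaaf3 (chr7:4522957-4532442, − strand), which acts late in arm assembly, had no promoter peak in any spermatogonial library and 9.91, 9.6, 8.21 and 9.74 in adult cells, nearly the same in all 4.

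Few of the dynein chains were called throughout. Only 3 of 14 had a promoter peak in all 12 libraries: Dnali1 (an inner-arm light intermediate chain), Dnaic1 (an outer-arm intermediate chain) and Dnah7b (an inner-arm heavy chain). The promoter of Dnaic1, shared with Fam219a, had 4.08 to 7.67 in spermatogonia and 13.5 to 22.4 in adult cells. Dnah7b, with no other gene listed at its promoter, had 6.03 to 11.4 in spermatogonia, 16 and 14.9 in PS and 12.1 and 10.3 in RS, the lowest mean of the members called throughout. The RS values overlapped the spermatogonial values. Its near-copy Dnah7a was called in 1 spermatogonial library, at 3.42, and at 16, 17.6, 13.3 and 7.57 in adult cells. Reads of near-identical copies may have been split or dropped by the alignment, so values of Dnah7a and Dnah7b, and of Rsph3a and Rsph3b, are uncertain.

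Dnah17 (chr11:118021723-118129219, − strand), an outer-arm heavy chain of the sperm tail, had the strongest promoter peak of the 6 genes called in adult cells alone. Its fold enrichment was 23.6 and 31.5 in PS and 19.6 and 18.9 in RS, and no spermatogonial library had a peak. The RefSeq window of Dnah17 overlapped a peak in 1 of the 4 adult libraries only, and its promoter peaks (merged over PS and RS, chr11:118129654-118131815) lay upstream of it. Rsph6a (chr7:19054687-19074447, + strand), a radial spoke head gene of the testis, followed with 16, 16.5, 15.6 and 11.9. Dnaic2 (chr11:114727412-114757886, + strand), an outer-arm intermediate chain, had 12.2 and 11.7 in PS and 7.43 and 6.49 in RS. Dnah10 (chr5:124725085-124834308, + strand), an inner-arm heavy chain, had 11.4 and 8.53 in PS and 13.3 and 10.8 in RS. Dnah8 (chr17:30626936-30875264, + strand), the outer-arm heavy chain of sperm, was weak at 6.86, 8.53, 7.04 and 4.87, and its promoter is shared with 1700097N02Rik. The lowest fold enrichment of any peak was 3.31 to 3.84 in spermatogonial libraries, so a promoter below that height would be listed as uncalled.

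Among the radial spoke genes Rsph1 (chr17:31255020-31277356, − strand), a spoke head protein, showed the widest range. It had 5.24 in Thy1+ WT replicate 1, 4.56 in c-Kit+ WT replicate 1, 6.08 and 4.48 in Thy1+ KO, 3.78 in c-Kit+ KO replicate 1 and no peak in the other 3 spermatogonial libraries, then 27.1 and 35.2 in PS and 23.1 and 20.0 in RS. Dnah1, an inner-arm heavy chain whose loss in men disturbs the sperm tail, was likewise low where called in spermatogonia, at 5.13, 4.56 and 3.78 in replicate 1 of c-Kit+ WT and of both KO groups, and had 13.7, 9.6, 14.1 and 9.20 in adult cells. Rsph9, also of the spoke head, had 3.54 and 3.78 in 2 spermatogonial libraries and 10.7, 10.1, 11.7 and 9.74 in adult cells. Rsph4a, a spoke head gene of motile cilia in the airway, behaved otherwise: 5.70 in c-Kit+ WT replicate 1, 4.56 in Thy1+ KO replicate 1, 3.43 and 4.80 in PS and no peak in RS. Dnah5 and Dnah11, the outer-arm heavy chains of airway and nodal cilia, had no promoter peak in any library. Dnah9, their relative, had a single spermatogonial value of 6.15, in c-Kit+ KO replicate 1, then 12.6 and 16 in PS and 3.13 and 4.87 in RS, so PS and RS did not overlap. Dnah2, an inner-arm heavy chain, had a promoter peak in RS alone, at 3.91 and 4.87, close to the lowest value of any peak there (3.13 and 3.25). Its stronger signal near the start at 69549108 was a region classed as intronic (chr11:69545137-69547847). That region had 17.9 and 21.3 in PS and 11.7 and 10.8 in RS, a difference that did not pass (limma adjusted p = 0.0595).

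Where all 12 libraries had a promoter peak, every adult value exceeded every spermatogonial value for 12 of 18 genes (66.7%), against 22.1% of the 9350 genes called throughout. The 12 were Dnaaf1, Dnaaf2, Dnaic1, Dnali1, Rsph3a, Rsph3b, Ift57, Ift80, Ift88, Ift122, Ift140 and Ift172. Of the 18, 8 share a promoter peak with another gene, among them Dnaaf1, Dnaaf2, Dnaic1, Dnali1, Ift80, Ift122 and Ift140 of the 12. The part of the shared genes in this result was not tested. Fold enrichments mostly ran higher in adult libraries. Tests between groups were therefore made with limma on log2 values with the median region of every library set to 0. A change is relative to that median.

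Knockout and wild-type spermatogonia were compared to ask whether Scml2 loss alters acetylation at these genes. No region of a member passed the threshold (limma, adjusted p under 0.05 over all regions), neither among 19 member regions in Thy1+ cells nor among 22 in c-Kit+ cells. Over all regions 0% rose and 0.00923% fell in Thy1+ cells, and 0% rose and 0% fell in c-Kit+ cells, so few calls were made anywhere (559 and 543 regions at an unadjusted p under 0.05). The 0.00923% was 1 region outside promoters (0.0563% of those). At an unadjusted p under 0.05 there were 0 and 3 member regions. The 3 were the promoters of Rsph3b (−0.75 ± 0.22, SE), Ift74 (−0.71 ± 0.23, SE) and Ift27 (−0.57 ± 0.22, SE) in c-Kit+ cells, each at an adjusted p of 0.941. Ift74, a core IFT-B subunit, stood at 8.04 and 5.25 in c-Kit+ KO and 9.69 and 10.5 in c-Kit+ WT, without overlap. Ift43 was called in both Thy1+ KO libraries (7.09 and 5.76) and in neither Thy1+ WT library (1.41% of all genes). The reverse pattern held for 0 members and 0.0104% of all genes. In c-Kit+ cells 0 member promoters were called in both libraries of 1 genotype and neither of the other, against 0.464% (KO only) and 0.23% (WT only) of all genes. Outside promoters, 3 member regions were called in KO Thy1+ cells alone, at Dnaaf3, Dnah2 and Dnah6, and 3 in KO c-Kit+ cells alone, at Dnah2, Dnah6 and Ift140, against 1.15% and 0.646% of all such regions. In WT alone there were 0 and 0, against 0.0505% and 0.128%. The difference of the genotype effect between the stages was tested as an interaction and called 0 of 18 member regions (0 of 9585 in all; 2 and 453 at an unadjusted p under 0.05).

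Between Thy1+ and c-Kit+ spermatogonia no member region passed either, of 18 in WT and 21 in KO (limma). Over all regions 0.167% were higher and 0.0491% lower in c-Kit+ WT (0.104% and 0.0461% of promoters, 0.534% and 0.0667% of others), and 0% and 0% in c-Kit+ KO (971 and 1255 regions at an unadjusted p under 0.05). At that unadjusted level the members gave 0 and 4. The lowest adjusted p was 0.202, for the promoter of Ift81 (IFT-B, with Ift74 the tubulin carrier), at 18.7 and 12.8 in Thy1+ KO and 5.20 and 5.83 in c-Kit+ KO (log2 change −0.99 ± 0.24, SE). Without Thy1+ KO replicate 2, 2 of 25 member regions and 878 of all 12601 passed. Dnah6, an inner-arm heavy chain, had a promoter peak in both c-Kit+ WT libraries (5.13 and 6.82) and neither Thy1+ WT library, as did 1.05% of all genes. The reverse held for 0 members and 0.642% of all genes, and in KO 0 members were called in c-Kit+ alone or Thy1+ alone (0.261% and 1.33% of all genes). Outside promoters 2 member regions of WT, at Dnaaf3 and Dnah2, and 3 of KO, at Dnah2 and Ift140, were called in c-Kit+ alone, against 1.01% and 1.04%. In each genotype 1 region, at Dnah17, was called in Thy1+ alone, against 0.177% and 0.827%. In KO the Dnah6 promoter was called in both c-Kit+ libraries and Thy1+ replicate 1.

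From c-Kit+ spermatogonia to PS, promoters of the genes leaned upward. Of 21 member promoters called in all 4 libraries, 7 rose (33.3%) and 0 fell, against 8.21% and 15.2% of the 9283 promoter regions tested (limma, adjusted p under 0.05). The median log2 change was 0.46 for the members and −0.06 for all promoters, and 19 of the 21 lay above 0. At an unadjusted p under 0.05 there were 11 of the 21, all higher, beside 3160 of all 9283 promoter regions in either direction. With other regions included, 8 of 25 member regions rose and 1 fell, against 6.83% and 25.1% of all regions. A promoter had to be called in c-Kit+ cells to be tested, so genes without a promoter call there are not among the 21. Beside this, all 5 Sertoli markers had a promoter peak in PS and 4 and 1 in c-Kit+ KO, with the sums of fold enrichment at 25.5 and 9.91 in c-Kit+ KO, and their part in the result was not tested.

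The 7 were Ift81, Dnaic1, Rsph3b, Ift80, Dnaaf1, Rsph3a and Ift122. Ift81 had the largest change: 5.20 and 5.83 in c-Kit+ KO and 22.9 and 24.0 in PS, a log2 change of 1.01 ± 0.21 (SE; limma, adjusted p = 0.00344). Its Thy1+ values of 8.45 to 18.7 lay between the 2 groups, so c-Kit+ KO was the low point. Dnaic1, with Fam219a, had 6.62 and 4.08 against 20.2 and 22.4 (0.96 ± 0.20, adjusted p = 0.0032). Rsph3b, a spoke stalk gene that anchors protein kinase A, had 6.15 and 4.08 against 17.2 and 22.4 (0.89 ± 0.20, adjusted p = 0.00524), and its near-copy Rsph3a 8.04 and 5.25 against 21.0 and 24.0 (0.71 ± 0.20, adjusted p = 0.0144). In these pairs the groups did not overlap on the deposited scale, which picking by the test on the same values favours. Changes of Ift80 (0.86), Dnaaf1 (0.84) and Ift122 (0.61) had adjusted p-values of 0.0223, 0.0061 and 0.0388. Their regions are also listed for Smc4, Hsdl1 and Mbd4, so these changes cannot be given to the members alone. The lowest change was that of Dnah7b (−0.11), and that of Ift57 was 0.03; neither passed.

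Of 4 member regions outside promoters, all in Dnah2, an intronic one near its start (chr11:69545201-69547547) rose, from 6.62 and 3.50 to 17.9 and 21.3 (0.95 ± 0.22, adjusted p = 0.00593). Another (chr11:69510895-69511595) was called lower, at −0.98 ± 0.19 (adjusted p = 0.00196), although its deposited values hardly differed (4.73 and 4.08 against 4.58 and 4.80): it fell only relative to the median region. That median was 3.17 and 2.81 in c-Kit+ KO and 4.04 and 4.09 in PS on the log2 scale. The percentages over all other regions were 2.86% higher and 53.7% lower. Without c-Kit+ KO replicate 2, 0 of all 16882 regions passed, and without PS KO replicate 2, 5 of 25 member regions and 2583 of all 12899 did. With quantile normalization 3 of the 25 and 784 of all 12501 passed, and without centring 24 were higher and 0 lower, in place of 8 and 1, with 8940 of all 12501 called in place of 3992.

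By calls, 8 promoters of the members (21.6%) were present in both PS libraries and absent from both c-Kit+ KO libraries, against 10.5% of all genes. They were Dnah17, Dnah7a, Rsph6a, Dnaic2, Dnah10, Dnaaf3, Dnah8 and Rsph4a. The reverse was found for 0 members and 0.324% of all genes. From PS to RS, 1 promoter was called in RS alone, that of Dnah2, and 1 in PS alone, that of Rsph4a (1.58% and 2.3% of all genes).

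**Figure D3:**
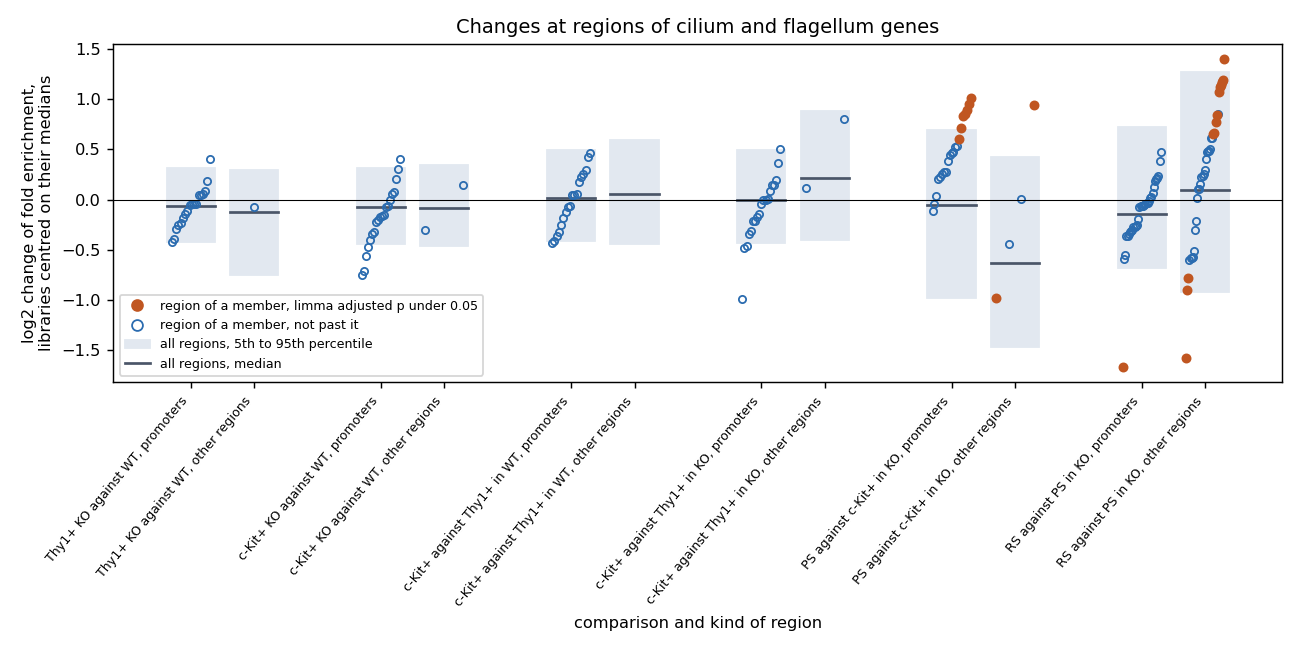
Log2 change of fold enrichment after centring, for regions of the cilium and flagellum genes in the 6 comparisons, promoters and other regions apart (other regions include those merged with the promoter of another gene). Each circle is 1 region (filled: limma adjusted p under 0.05), the grey box spans the 5th to 95th percentile of all regions tested and the dark line is their median. In PS against c-Kit+ the promoters lie mostly above the line, with a median of 0.46; in RS against PS the other regions spread widest, from −1.58 to 1.40.

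Between PS and RS few promoters of the genes passed the test and more of their other regions did. The PS libraries are the same as in the comparison with c-Kit+ cells. Of 33 member promoter regions 0 rose and 1 fell, against 4.74% and 5.33% of all promoters, and the median change was −0.06 beside −0.14. The 1 was Dnah9 (chr11:66167554-66168803), with 12.6 and 16 in PS and 3.13 and 4.87 in RS, a log2 change of −1.67 ± 0.29 (SE; limma, adjusted p = 0.00935). Its 3.13 in RS replicate 1 equals the lowest fold enrichment of any peak in that library. Dnaic2 came next at −0.59 ± 0.19, without passing (adjusted p = 0.0578). The highest was Dnah10, whose merged region was also listed for Atp6v0a2, at 0.47 ± 0.22 (adjusted p = 0.163). At an unadjusted p under 0.05 there were 3 of the 33, all lower, beside 2501 of all 11566 promoter regions in either direction. With other regions included, 10 of 69 member regions rose and 4 fell, against 12.4% and 7.79% of all regions. Beside this, 3 of 3 tested promoter regions of Sertoli markers fell and 3 of 6 of spermatid markers rose, and their part in the results was not tested.

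Of 30 member regions outside promoters, 9 rose (30%) and 3 fell (10.0%), against 21.5% and 10.7% of the 9763 regions of that kind. The median change was 0.44, beside 0.10. Dnah8 led, with an exonic region (chr17:30855746-30859088) at 7.24 and 3.73 in PS and 13.3 and 10.8 in RS (1.40 ± 0.30, adjusted p = 0.0145). Another at its 3′ end, listed with the neighbour Glp1r (chr17:30870596-30876037), had 9.53 and 5.33 against 15.6 and 13.0 (1.19 ± 0.28, adjusted p = 0.0189). The change at a Dnah8 promoter region (chr17:30626411-30626746) was −0.01 ± 0.24 (adjusted p = 0.979). Another Dnah8 promoter region (chr17:30627299-30627517) was not called in every library. With uncalled libraries set low, its change was −0.86 ± 0.21 (SE; limma, adjusted p = 0.032). Within the dyneins, an exonic region of Dnah9 (chr11:65963607-65966510) rose from 4.96 and 4.27 to 10.2 and 7.03 (1.07 ± 0.21, adjusted p = 0.0109) while its promoter fell.

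Upstream of Ift81 and listed also with P2rx7, a region (chr5:122627733-122629936) rose from 4.96 and 4.80 to 11.3 and 8.11 (1.17 ± 0.20, adjusted p = 0.00855). At Dnaaf3 an exonic region (chr7:4525253-4528554) had 12.2 and 10.1 in PS and 22.3 and 20.0 in RS (1.12 ± 0.21, adjusted p = 0.0099), above its promoter in both stages. It was also called in 5 spermatogonial libraries, at 3.42 to 11.1, where the promoter was not. Other regions that rose were 2 upstream of Rsph3b beside Tagap1 and Rnaset2b (1.14 and 0.77), an intron of Dnah6 (0.85) and an intron of Rsph1 (0.65). An Ift122 region merged with the Efcab12 promoter (0.67, adjusted p = 0.0455) also rose.

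The 3 that fell lay at Dnah2, Dnah17 and Rsph1. The exonic Dnah2 region (chr11:69451886-69454936) had 14.5 and 12.3 in PS and 4.69 and 3.25 in RS (−1.58 ± 0.21, adjusted p = 0.00788), and 4.96 to 7.57 in the 6 spermatogonial libraries with a peak. Upstream of Dnah17 (chr11:118135846-118139293) values fell from 16 and 18.1 to 9.00 and 7.03 (−0.91 ± 0.19, adjusted p = 0.0137), with no spermatogonial peak. Downstream of Rsph1 (chr17:31248356-31253392, classed as intergenic) they fell from 24.0 and 33.6 to 17.6 and 11.9 (−0.78 ± 0.22, adjusted p = 0.0357), again with no spermatogonial peak. In PS this Rsph1 region was nearly as strong as the Rsph1 promoter. In each of the 14 called regions the PS and RS values did not overlap on the deposited scale. The regions were picked by the test on these same values, so this adds no support. Without PS KO replicate 2, 0 of all 26558 regions passed, and without RS KO replicate 2, 9 of 74 member regions and 3068 of all 24947 did. Without centring 7 were higher and 11 lower, in place of 10 and 4, with 5850 of all 21329 called in place of 4309.

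**Figure D4:**
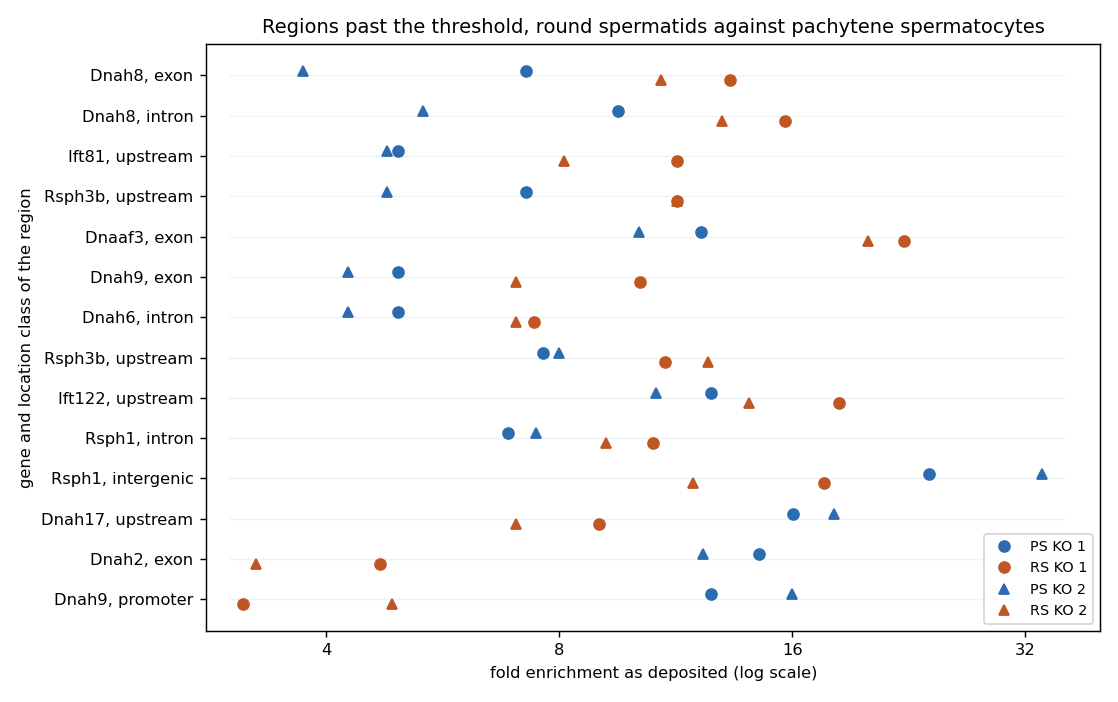
Deposited fold enrichment (log axis) in both PS libraries (blue) and both RS libraries (orange) at the 14 regions of cilium and flagellum genes past the threshold between RS and PS; circles are replicate 1 and triangles replicate 2. Rows are ordered by log2 change, from the Dnah8 exon (1.40) to the Dnah9 promoter (−1.67). Blue and orange points do not overlap in any row, which picking by the test on the same values favours.

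Peaks of the genes outside promoters were more numerous in adult cells. Per library they numbered 8 and 7 in Thy1+ WT, 15 and 10 in c-Kit+ WT, 36 and 8 in Thy1+ KO, 31 and 15 in c-Kit+ KO, 158 and 119 in PS and 242 and 180 in RS. The groups of adult cells lay above all others, and RS above PS. All peaks outside promoters numbered 5352 to 22110 in spermatogonial libraries and 46317 to 56674 in adult libraries. As a share of all peaks outside promoters, those of the genes made up 0.0952% to 0.174% in spermatogonia, 0.299% and 0.248% in PS and 0.427% and 0.389% in RS. Their share of promoter peaks moved less, from 0.189% to 0.233% in spermatogonia and from 0.229% to 0.264% in adult cells. With the 17877 strongest peaks of each library, the group means were 7.00 to 10.5 in spermatogonia, 20.0 in PS and 28 in RS, in place of 7.5 to 23.0, 138.5 and 211.

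Merged over the 12 libraries these peaks formed 360 regions, 7 of which joined the promoter of another gene. Of the other 353, 302 (85.6%) were called in adult cells only, against 68.0% of all 110992 regions outside promoters, and 20 (5.67%) in spermatogonia only, against 17.9%. None was called in all 12 libraries. Their median length was 262 bp, and most were called rarely: 209 (59.2%) were called in 1 library, near the 58.1% of all such regions, and 20 were called in all 4 adult libraries and in no other.

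**Figure D5:**
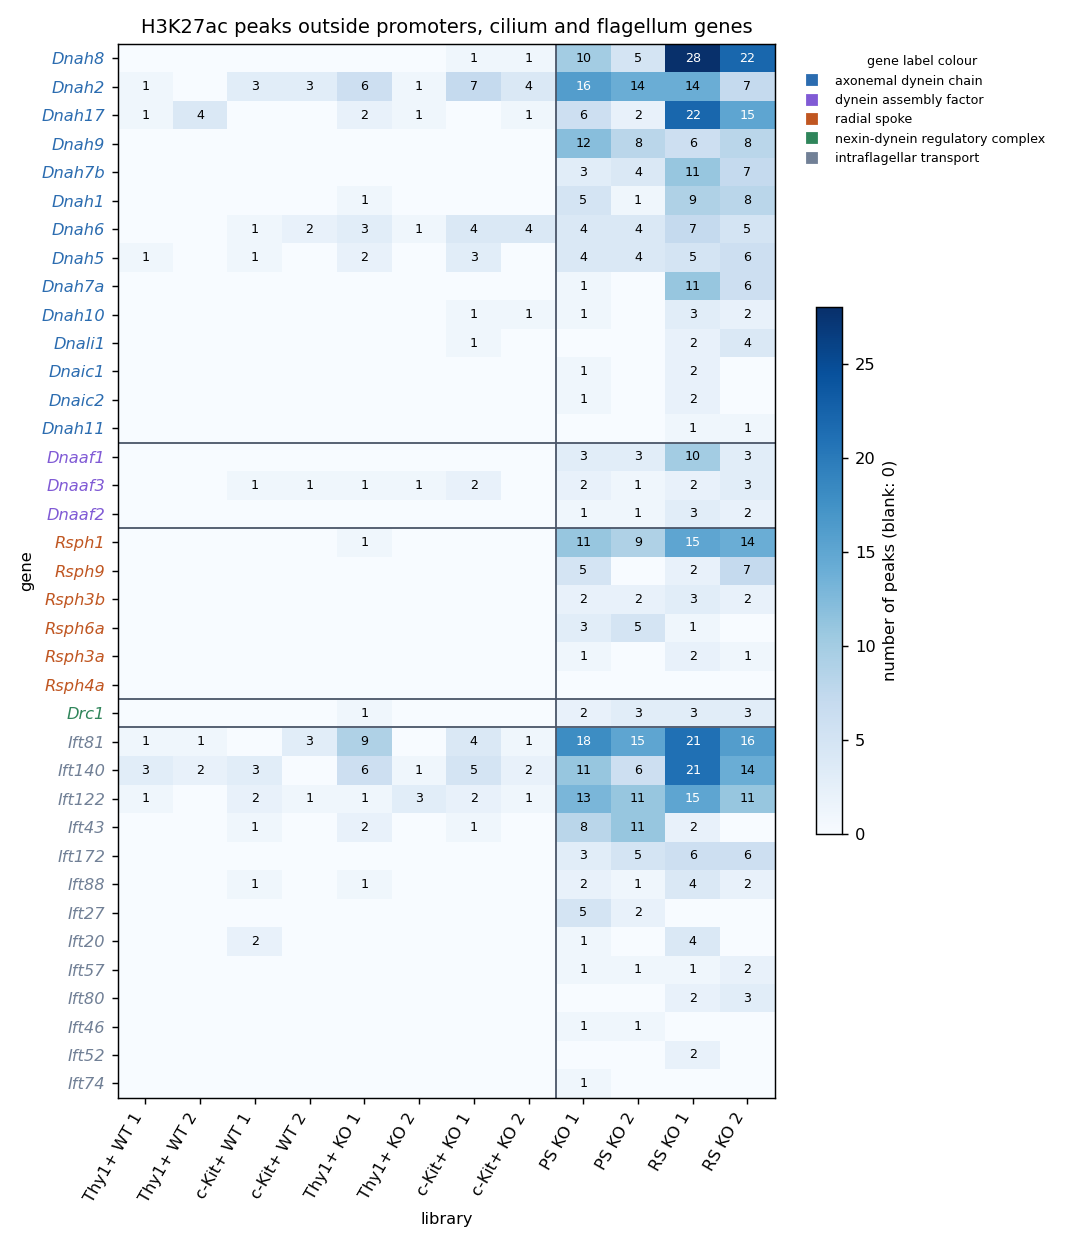
Number of peaks outside promoters for each of the 37 genes (rows, grouped and coloured by role) in each library (columns), printed in each cell; blank cells are 0. Counts in RS reach 28 and 22 for Dnah8 and 22 and 15 for Dnah17, while Ift43 and Ift27 have more in PS than in RS.

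Dnah8 and Dnah17, the outer-arm chains of the sperm tail, had the largest differences in number between RS and PS. Dnah8 had 10 and 5 peaks in PS and 28 and 22 in RS, and 1 in each c-Kit+ KO library. Dnah17 had 6 and 2 in PS and 22 and 15 in RS. Dnah7a had 1 and 0 and then 11 and 6. These genes span 248 kb (Dnah8), 107 kb (Dnah17) and 309.8 kb (Dnah7a), and the part of gene length in these numbers was not tested. Rsph1 had 11 and 9 and then 15 and 14, and Dnah7b 3 and 4 and then 11 and 7. Some genes had fewer in RS. Ift43 had 8 and 11 in PS and 2 and 0 in RS, Ift27 5 and 2 and then 0 in both, and Rsph6a 3 and 5 and then 1 and 0. Dnah2 and Dnah9 overlapped between the stages, at 16 and 14 against 14 and 7, and 12 and 8 against 6 and 8. Among the transport genes Ift81, Ift140 and Ift122 carried most, with 18 and 15, 11 and 6, and 13 and 11 in PS and 21 and 16, 21 and 14, and 15 and 11 in RS.

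Regions present in both RS libraries and in neither PS library numbered 34 (9.63%), against 7.16% of all regions outside promoters, and those present in PS only 20 (5.67%), against 8.18%. Of the 34, 6 lay at Dnah8, 4 at Ift81, and 3 each at Dnah7b, Ift140 and Rsph1, and 23 were intronic. Of the 20, 5 lay at Ift43 and 3 each at Dnah2, Dnah9 and Rsph6a, and 13 were intronic. They were weak: the median of the mean fold enrichments was 4.24 in the first set and 4.31 in the second. From c-Kit+ KO to PS, 47 member regions (13.3%) appeared in both libraries and 1 was lost, against 14.1% and 0.559%.

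The 3 regions outside promoters with the highest mean fold enrichment over the 4 adult libraries, among those with no spermatogonial peak, were singled out after their values were seen. They were the Rsph1 region above, a region classed as intergenic and listed for Ift57 (chr16:49254851-49256573; 19.1 and 25.1 in PS, 14.5 and 11.4 in RS), and a Drc1 region (chr5:30280974-30283097). The Ift57 transcript starts far from its region, at 49699294. There the symbol marks only a nearest gene, and a link to Ift57 was not tested. Drc1 encodes a core subunit of the nexin-dynein regulatory complex. The tables place its start at 30341663 and give the region as intergenic, but it covers the RefSeq start of Drc1 in GRCm38.p6, printed above. Values there were 14.1 and 13.3 in PS and 18.0 and 9.20 in RS, which overlap (log2 change 0.10 ± 0.25, limma adjusted p = 0.812), and no spermatogonial library had a peak. By that start Drc1 has the pattern of the 6 genes called in adult cells alone.

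Other genes of the pathway were taken from a list of 65 axoneme, flagellum and cilium genes, 63 of which the tables name. Of these, 24 had a promoter peak in all 4 adult libraries alone, 16 in these and some others, and 21 in all 12. Of all genes, 5.68%, 12.1% and 48.8% had these patterns. The 24 include the tektins Tekt1 to Tekt5 (filaments inside the doublets), the outer dense fibre genes Odf1, Odf3 and Odf4, Akap3 and Akap4 of the fibrous sheath, and Hydin, Spag16 and Spag17 of the central pair. Promoters of 61 were called in each adult library, where 71.4% to 75.4% of all genes had one. In spermatogonial libraries 25 to 36 were called, beside 55.2% to 67.3% of all genes. In PS against c-Kit+ 8 of 28 promoter regions rose and 0 fell (median 0.40), and in RS against PS 5 of 64 rose and 2 fell (median 0.07). Over all promoter regions the shares were 8.21% and 15.2% in the first and 4.74% and 5.33% in the second.

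Transcription factors of ciliary or spermatid genes were taken from a list of 12, of which the tables name 11. Promoters of 9 were called in each adult library and of 5 to 9 in spermatogonial libraries. Of all listed genes, 71.4% to 75.4% had a promoter peak in adult and 55.2% to 67.3% in spermatogonial libraries. Gmnc had a promoter peak in no library, and Sox5 only in c-Kit+ KO replicate 1, at 3.78. In PS against c-Kit+ 3 of 7 promoter regions rose and 0 fell, against 8.21% and 15.2% of all promoter regions. In RS against PS 0 of 11 rose and 2 fell, against 4.74% and 5.33%. Rfx4 had promoter values of 19.1 and 23.5 in PS and 12.9 and 9.74 in RS and no spermatogonial peak. Rfx2, known to drive ciliary genes in spermiogenesis, had 17.9, 21.9, 12.9 and 11.4 in adult cells and 5.24 to 9.62 in the 3 spermatogonial libraries with a peak. Foxj1, the regulator of motile cilia, had 14.5, 12.8, 14.9 and 13.5 in adult cells and 4.56 to 7.09 in 3 spermatogonial libraries. Rfx1 and Rfx3 were called in all 12 libraries, at 14.6 to 32.4 and 15.7 to 28.4 in spermatogonia and 30.3 to 36.8 and 23.8 to 34.7 in adult cells.

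The Cfap family and several others stood in the tables under older names. RefSeq holds 83 symbols that meet the naming rule, of which 37 were listed as such and 40 under an older synonym. Of these 40, 14 had a promoter peak in all 4 adult libraries and no spermatogonial library (5.68% of all genes), 13 in adult and some spermatogonial libraries (12.1%), 9 in all 12 (48.8%) and 3 in none (17.2%). The 14 include Cfap206, Cfap58 (listed as Ccdc147), Cfap65 (Ccdc108), Drc7 (Ccdc135), Dnaaf6 (Pih1d3) and Rsph14 (Rtdr1). Dnaaf6 (Pih1d3) and Dnaaf4 (Dyx1c1, called in all 12) also stand in the list of other axoneme, flagellum and cilium genes above. With these 40 added, promoter peaks were called for means of 70.0 in PS and 69.5 in RS and of 32 to 41.0 in spermatogonial groups.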

How the data were processed

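ChIPmentation peaks were analysed as the authors deposited them, 1 table per library. Per the submitters' processing notes, Bowtie and MACS2 were used with mm10, with no versions given. Per the file headers, each line gives a summit, the signal height there, a fold enrichment (a ratio of height to background), −log10 p-values and −log10 q-values, and the nearest genes with a location class. Within each deposited table the fold enrichment equalled (height + 1) / (background + 1) with 1 background per library, so no input control enters it. Of several summits in a peak the highest was used, and peaks on the mitochondrial genome were dropped. A gene's promoter value is its highest promoter peak.

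For each comparison, peaks overlapping by at least 1 bp were merged. Regions called in every library compared were tested with limma 3.58.1 (R 4.3.3) on log2 fold enrichment centred on each library's median, with Benjamini-Hochberg adjustment over all regions and a threshold of 0.05. On simulated data for PS against c-Kit+ (12501 regions, 200 changed), 8% of changes of 1 log2 unit and 69% of changes of 2 were recovered, with 0 false calls. In the data far more regions were called, 3992 of 12501, which loosens the adjustment. The simulated shares therefore do not describe the actual test. Groups came from sample titles. Genes named with values are, per comparison, up to 8 promoters and 4 other regions past the threshold in each direction, up to 8 promoters by calls, and the 5 highest and lowest promoters called throughout; any member could be named. Separate promoter values of Dnali1 are not reported here. Members and lists were chosen with earlier results of these data known. Alternatives were another normalization, no centring, a replicate block, stricter peaks (−log10 q of at least 5), overlap by at least 50% of the shorter peak, uncalled libraries set low, the strongest 17877 peaks, starts within 1000 bp, single-symbol lines and each library left out.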

Additional observations from a re-analysis of the deposited data

How the results depend on the processing

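With 2 libraries per group, leaving out 1 ended all calls in 2 comparisons. For PS against c-Kit+ KO the count of 9 became 3 with quantile normalization, 24 without centring, 52 with uncalled libraries set low (17 higher and 35 lower, in place of 8 and 1) and 3 with stricter peaks, and 0 to 13 with 1 library left out. For RS against PS the count of 14 became 45 with uncalled libraries set low and 8 with stricter peaks, and 0 to 13 with 1 library left out. For c-Kit+ against Thy1+ in KO it was 0 to 2 with 1 library left out. The cause was not tested. Without centring the Dnah2 intron region from 69510895 turned to 0.093 (adjusted p = 0.777). The replicate number as a block gave 9 and 14 in these PS and RS comparisons and changed no call; same-numbered libraries share only a number, with deviations correlated at 4e-04 to 0.166. Of 213 alternative values of the regions that passed, 156 kept their call, 56 lost it and 1 reversed; 40 of the losses came from leaving out 1 library.

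Genes with a promoter peak are given as group means for Thy1+ and c-Kit+ cells of WT, the same of KO, PS and RS, in that order. Lines naming 1 gene alone gave 12, 15.5, 15.0, 15.5, 24.5 and 24.5. RefSeq windows, chosen after the data were seen, gave 13.0, 16, 15.5, 15.0, 27.5 and 25.5, and older symbols, likewise, 32, 36.5, 41.0, 35.5, 70.0 and 69.5. Stricter peaks gave 18.0 in Thy1+ WT, 18.0 in c-Kit+ WT, 17.0 in c-Kit+ KO, 32 in PS and 30.5 in RS. Starts within 1000 bp gave 32 and 32.5 in PS and RS, and equal peak numbers 19.0, 32 and 30.5 in c-Kit+ KO, PS and RS. Single libraries spanned 19 to 20, 20 to 25, 20 to 25, 21 to 25, 33 and 33.

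Peaks outside promoters, with stricter peaks, averaged 1.00 in Thy1+ WT, 2.00 in c-Kit+ WT, 2.50 in c-Kit+ KO, 41.5 in PS and 63.5 in RS. Equal peak numbers gave 7.00 in c-Kit+ WT, 9.00 in c-Kit+ KO, 20.0 in PS and 28 in RS, and starts within 1000 bp 8.50 in Thy1+ WT. Single libraries spanned 7 to 8, 10 to 15, 8 to 36, 15 to 31, 119 to 158 and 180 to 242. Under every one of these settings PS and RS lay above the spermatogonial groups.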
